A study of Drosophila melanogaster with 4 samples.

Results

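The genes described here are 10 Drosophila genes for transcription factors with a BTB domain, namely lola, fru, ttk, ab, bab1, bab2, rib, ken, lov and mod(mdg4). They were chosen by name and looked up by exact symbol in the authors' deposited table of genes with binding peaks of Prospero, a homeodomain protein that moves into the daughters of neuroblasts and turns them towards differentiation. Of these 10 genes, 7 were in the table and 3 were not. The share was 7.76% over all protein-coding genes and 22.1% in the 10 genes' own deciles of gene length. The table named 1504 genes that could be matched to the reference annotation.

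The peaks come from targeted DamID, in which a DNA adenine methylase (Dam) is tied to a chromatin protein and marks GATC sites near the places where that protein sits. The series has 4 groups, all made from brains of 3rd instar larvae and all driven by GMR71C09-GAL4 under Gal80ts, a temperature-sensitive block on the driver. They are Dam alone, Dam-Pros-FL (full-length Prospero), Dam-Pros-ΔN7 (another form of Prospero) and Dam-HP1a (a heterochromatin protein), with 3 biological replicates of each per the design text. The driver sets which cells make the fusion protein, while DNA was taken from the whole brain. By its title, the deposited list is of peaks in neural precursors and neurons of the larval brain. The list analysed here has no peak height, position, sample or replicate, so each gene is only in it or not in it, depth is unknown, and no replicate error can be given. The sources used here do not name the Prospero form behind it. No groups of samples were compared, no p-value is given, and shares over all protein-coding genes, or over those of like length, are given for reading the counts in place of a test.

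The BTB domain is a protein surface through which these factors pair with themselves or with one another and recruit partners that alter chromatin. In most of them a DNA-binding region follows, often a pair of zinc fingers, and alternative splicing joins 1 shared BTB end to different DNA-binding ends in genes such as lola, fru, ttk and mod(mdg4). The label zinc finger does not cover every gene here, since the Bab proteins and Ribbon bind DNA through a helix-turn-helix region of the Pipsqueak kind. In the fly nervous system members of this family set neuronal identity, axon paths, dendrite shape and the choice between neuron and glia.

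The table held factors known from neurons and glia along with factors known from other tissues. The entries were lola (FBgn0283521), needed for axon guidance and for neurons to stay differentiated, and fru (FBgn0004652), which builds the circuits of male courtship and is also made in larval neuroblasts. They were also ttk (FBgn0003870), a repressor of neuronal fate, and ab (FBgn0264442), which sets the simple dendrites of a class of sensory neurons. The remaining entries were lov (FBgn0266129), whose loss alters larval and adult behaviour, bab1 (FBgn0004870), a patterning factor of legs, abdomen and ovary, and ken (FBgn0011236), a repressor of a subset of JAK/STAT target genes. Not among the entries analysed here were bab2, the close relative and neighbour of bab1, rib, which shapes the tubes of the trachea and salivary gland, and mod(mdg4), whose products act at chromatin insulators.

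The 7 of 10 genes make a share of 70%, beside 7.76% of the 13946 protein-coding genes of the arms, of which 1082 were in the table. With 10 genes the exact Clopper-Pearson 95% interval of that share runs from 34.8 to 93.3%, and it covers counting error only. The genes were picked by name with earlier results known and are not a random draw. The interval therefore does not test their share against the 7.76%. Each of the 7 genes stood in the table once, under a gene identifier, with the same spelling in the gene name and symbol columns, and none had an entry for a single transcript. The number of entries therefore does not rank them. By chromosome arm, the table held 3 of the 4 genes on 2R (lola, ken and lov but not rib), 2 of the 3 on 3R (fru and ttk but not mod(mdg4)), 1 of the 2 on 3L, and ab on 2L. The share of all protein-coding genes in the table was 8.28% on 2R, 7.59% on 3R, 9.09% on 3L and 6.29% on 2L.

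Most of the 10 genes are much longer than a typical fly gene, and the share of genes in the table was highest in the longest genes. Length here is the span of the gene in the Release 6 plus ISO1 MT assembly, used as a property of the gene. The median length was 43.6 kb for the 10 genes, 2.16 kb for all protein-coding genes and 6.49 kb for the protein-coding genes in the table. By length the order was fru (131 kb), bab1 (64.7 kb), lola (61.4 kb), lov (53.8 kb), ab (50.4 kb), bab2 (36.8 kb), ttk (21.5 kb), rib (11.3 kb), mod(mdg4) (7.3 kb) and ken (7.17 kb). The 5 longest were all in the table, and the shortest, ken, was in it too. The span of mod(mdg4) leaves out its annotated pieces pre-mod(mdg4)-AE and pre-mod(mdg4)-X. Its length, and the comparisons by length below, therefore cover only part of that locus.

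**Figure D1:**
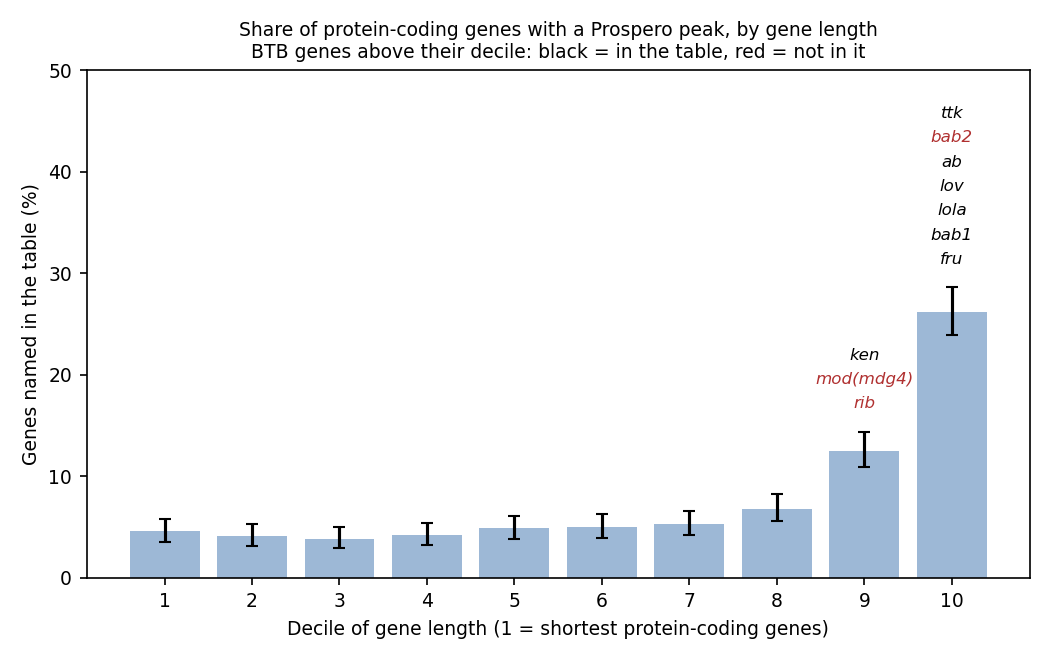
Share of protein-coding genes named in the authors' table (y axis, percent) in each decile of gene length (x axis), with exact 95% intervals as error bars and the 10 BTB genes written above their decile. The share is 12.5% in decile 9 and 26.2% in decile 10, and of the 7 BTB genes above decile 10 only bab2 is not in the table.

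The longest decile of protein-coding genes starts at 14.7 kb and holds 7 of the 10 genes. Of those 7, 6 were in the table and bab2 was not, beside a share of 26.2% in that decile (exact 95% interval 23.9 to 28.6). The other 3 genes fell in decile 9, where 12.5% of genes were in the table (10.9 to 14.4), and of them ken was in it while rib and mod(mdg4) were not. Averaged over the 10 genes, the share in their own deciles was 22.1%. A finer setting took, for each gene, the 100 protein-coding genes nearest to it in length. Of such genes, 42 of 100 were in the table around fru, 36 around bab1, 35 around lola, 25 around ab, 24 around lov, 22 around ttk and 13 around ken. The corresponding numbers for the genes not in the table were 22 around bab2, 11 around rib and 9 around mod(mdg4). So ttk and bab2 lie among genes with the same share, and the table holds only ttk.

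Several BTB genes make many transcripts, and genes with many and with few transcripts stood on both sides of the table. RefSeq gives 31 transcripts for mod(mdg4), which ranks 3 among all protein-coding genes, 25 for lola, which ranks 6, and 15 for fru. The other counts were 8 for ttk, 5 each for ab and lov, 4 for bab1, 3 for rib, 2 for bab2 and 1 for ken. The gene with the most transcripts was thus not in the table, and the gene with 1 transcript was. Among all protein-coding genes with 10 or more transcripts 26.4% of 231 were in the table, and among those with 1 transcript 4.82% of 6915. Part of this contrast goes with length. In the longest decile the shares were 30.5% of 167 with 10 or more transcripts, 32.8% of 405 with 5 to 9, and 16.1% of 143 with 1.

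**Figure D2:**
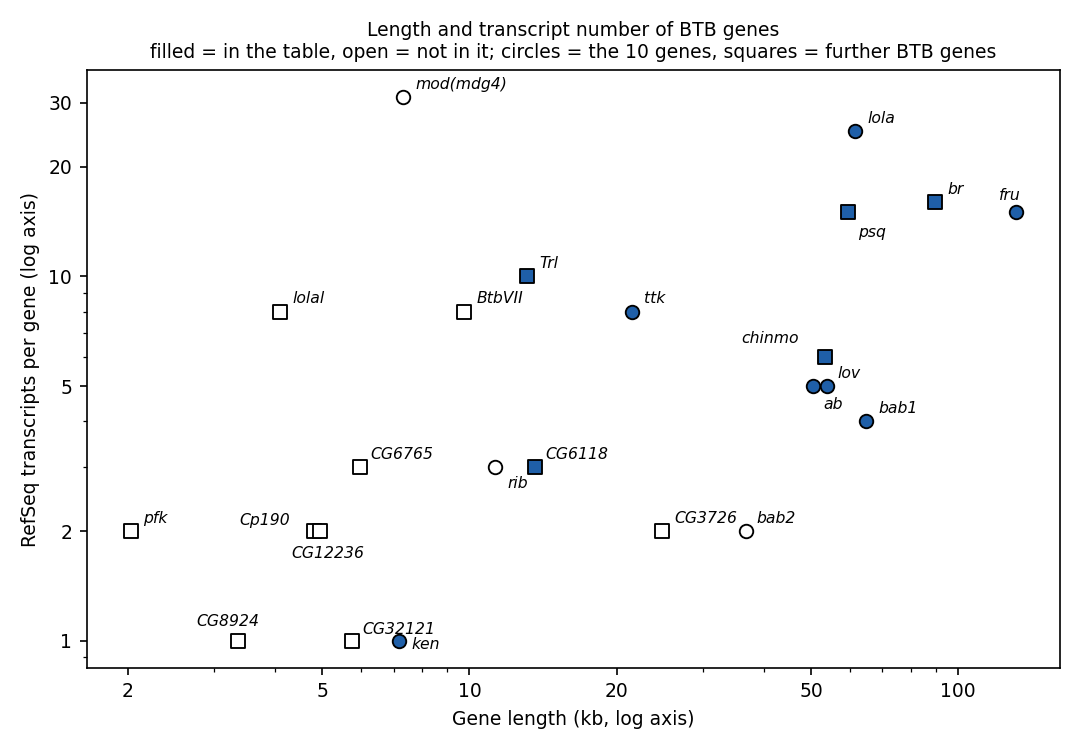
Gene length in kb (x axis, log) and RefSeq transcripts per gene (y axis, log) of the 10 BTB genes (circles) and the 14 further BTB genes (squares), filled where the gene is in the table. Filled symbols lie towards the right, while mod(mdg4), with 31 transcripts at 7.3 kb, and bab2, at 36.8 kb, are open.

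The genes next to a BTB gene show where along a chromosome the table's entries cluster. Taking the 5 annotated genes on each side, lola had 8 of 10 neighbours in the table, lov and ttk had 2 each, bab2 and rib had 1 each, and fru, ab, bab1, ken and mod(mdg4) had none. Across all protein-coding genes in the table the mean was 2.59 of 10 neighbours, and 14.5% had none. Across those not in the table the mean was 0.63, and 68.8% had none. Of the 7 BTB genes in the table, 4 thus stood alone within this window. The gene lola was at the other end, since only 2.5% of the genes in the table had 8 or more. This contrast depended on which neighbours were counted. With protein-coding neighbours only, a setting added after the table was seen, lola, lov and ttk had 3 each. In that setting bab1 had 2, fru, ab and ken had none, and the mean over genes in the table was 2.21.

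**Figure D3:**
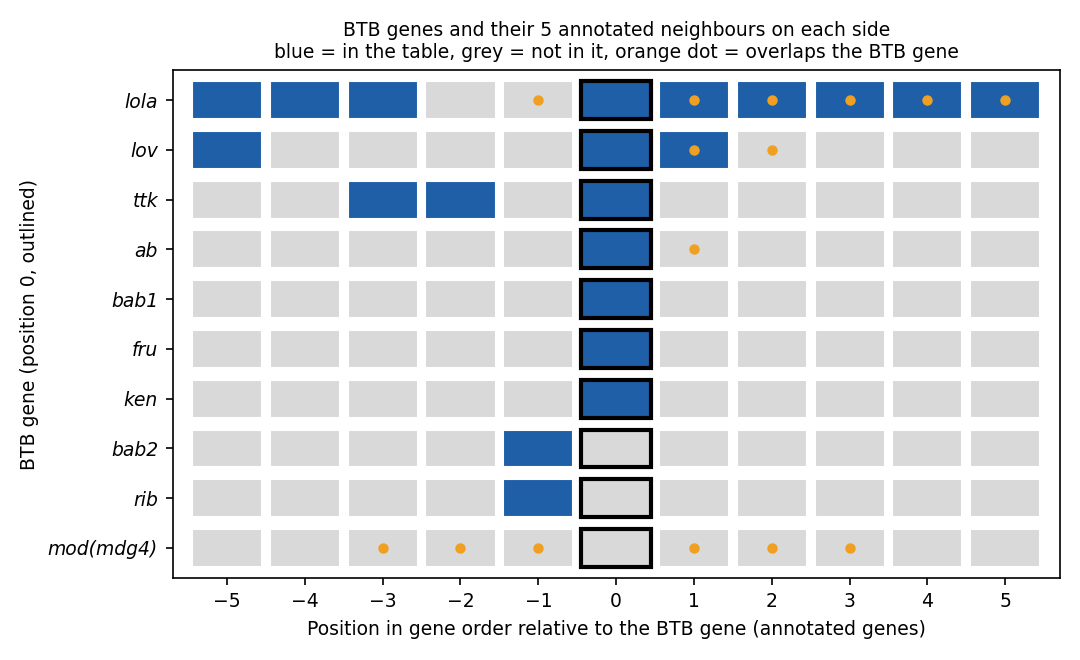
Each row shows a BTB gene (position 0, outlined) and its 5 annotated neighbours on each side in gene order (x axis), blue where the gene is in the table, grey where it is not, with an orange dot where the neighbour overlaps the BTB gene. The row of lola holds 8 blue neighbours, and the rows of ab, bab1, fru, ken and mod(mdg4) hold none.

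With all annotated genes counted, lola had the most neighbours in the table of all the BTB genes examined. Inside lola lie 4 small nucleolar RNA genes, snoRNA:lola-a, snoRNA:lola-b, snoRNA:lola-c and snoRNA:lola-d, which belong to a class of guides for the chemical modification of other RNAs, and all 4 were in the table. They make up 4 of the 7 snoRNA genes in the table, out of 269 annotated. The antisense RNA gene asRNA:CR45135, also inside lola, was in the table with 1 gene and 1 transcript identifier. Then follow lncRNA:acal, with 1 gene and 1 transcript identifier, and psq (FBgn0263102), another BTB factor, which binds DNA through the Pipsqueak domain. From lola to psq the entries run through 8 consecutive annotated genes without a gap.

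Few runs in the table were as long. The entries formed 729 runs in gene order, of which 359 were a single gene and 8 had 8 or more genes, and the longest had 13. On the other side of lola the table held trsn, asRNA:CR45134 (1 gene and 2 transcript identifiers) and whd, which encodes a carnitine palmitoyltransferase. The gene Pef between trsn and lola was not in it. An annotated piece of lola, pre-lola-G, was not in the table either, and none of the 24 annotated segments of this kind was.

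Genes that lie inside other genes bear on how the entries of lola and lov are to be read. Over the whole annotation, counting a gene once for each gene that it lies in, 727 genes lay inside protein-coding genes that were in the table, and 236 of them (32.5%) were in it as well. Of 2690 genes inside protein-coding genes that were not in the table, 1 was in it. An entry for a gene inside another thus came with an entry for the outer gene in nearly every case. Whether the snoRNA entries and the lola entry rest on the same peaks cannot be told from names. Inside lov the table held CG30430 and not CG43106. The gene cmet, which overlaps the end of ab, was not in it. In lov and ab some genes within or across the span were thus left out, and the entry for the BTB gene did not carry every overlapping gene with it.

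Other neighbours in the table were few when all annotated genes were counted. Near ttk they were CG42693 and lncRNA:CR45052, and lncRNA:CR34046, which lies between them and ttk, was not in the table. At the far end of the window of lov was gsb, a paired-type homeobox gene of segmentation and neuroblast patterning. Next to rib was tbrd-2, a bromodomain gene of the testis, which was in the table although rib was not. For mod(mdg4) the window held 8 of its own annotated segments beside tin and bap, homeobox genes of mesoderm. With segments left out, aus, which then stood next to mod(mdg4), was in the table. With protein-coding neighbours only, CG11550 and Zmynd8 near ttk and uzip near lov were in the table too.

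**Figure D4:**
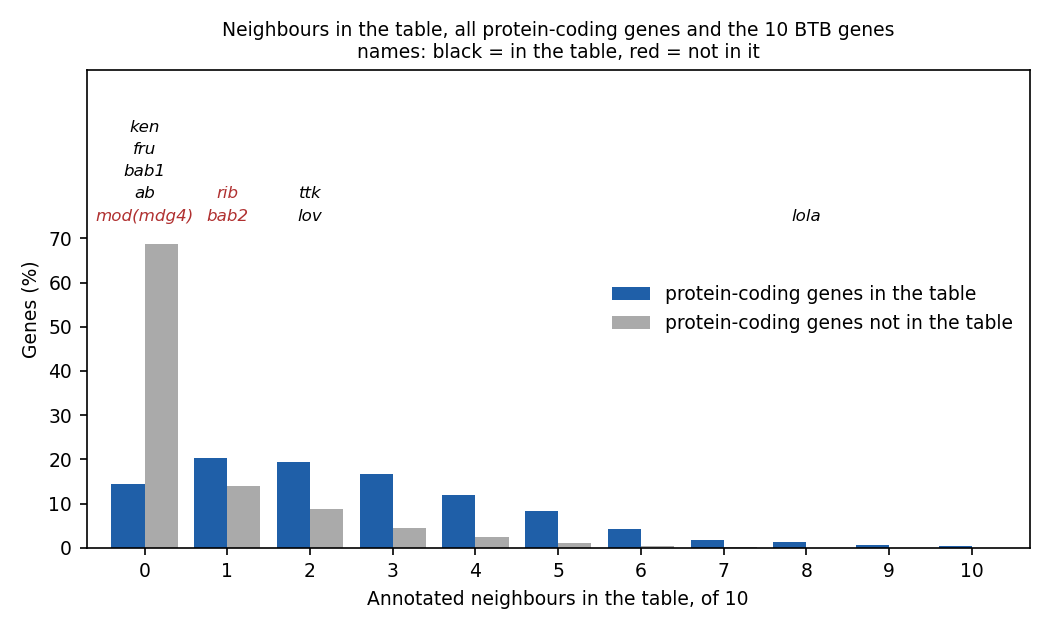
Percent of protein-coding genes (y axis) by the number of their 10 annotated neighbours in the table (x axis), for genes in the table (blue) and not in it (grey), with the 10 BTB genes written above their own number. Most of the BTB genes stand at 0 to 2 and lola stands at 8.

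The genes bab1 and bab2 are tandem copies with no annotated gene between them, and the table separated them. It held bab1, at 64.7 kb and 4 transcripts, and not bab2, at 36.8 kb and 2 transcripts. Neither had any other entry among its 5 annotated neighbours on each side, and the entry of bab1 is the 1 neighbour counted for bab2. This depended on the neighbours counted. With protein-coding neighbours only, a setting added after the table was seen, nerfin-1 and Glut1 near bab1 were in the table. In that setting Glut1 was also a neighbour of bab2. Without a threshold or a peak position, a gene just short of the table cannot be told from a gene with no Prospero signal. The 3 genes bab2, rib and mod(mdg4) are therefore only genes not named among the entries analysed here.

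Further BTB factors and BTB proteins of chromatin were looked up in the same way. They were chosen with earlier results for br and chinmo known, so their counts are descriptive only. Of 14 such genes, 5 were in the table (35.7%, exact interval 12.8 to 64.9), beside 7.76% of all protein-coding genes. That background share would give 1.09 of the 14 genes, and the shares in their own length deciles would give 1.87. The 5 in the table were br (FBgn0283451), the ecdysone-response factor Broad, and chinmo (FBgn0086758), a temporal identity factor of neuroblasts and neurons. With them were Trl (FBgn0013263), which encodes GAGA factor, psq, and CG6118 (FBgn0038339). The other 9 were lolal, a BTB protein that partners GAGA factor, Cp190, an insulator protein, BtbVII, pfk (CG15812 in the reference), CG3726, CG6765, CG8924, CG12236 and CG32121. No test of the difference between these genes and the 10 was made. Both lists were picked by name, so the intervals of the 2 shares do not compare them.

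These further genes were shorter, with a median of 7.87 kb. Their 4 genes in the longest decile were br (89.7 kb), psq (59.4 kb), chinmo (53.4 kb) and CG3726 (24.8 kb), and 3 of them were in the table. Of their 10 shorter genes, 2 were in it, Trl (13.1 kb) and CG6118 (13.6 kb). Over all 24 BTB genes, the table held 9 of the 11 in the longest decile, beside 26.2% of all genes in that decile. It held 3 of the 13 others, which lie in deciles 5 to 9. In those deciles 4.87 to 12.5% of all genes were in the table. The 3 genes, ken, Trl and CG6118, are all in decile 9, where the share was 12.5%. Of the 6 BTB genes with 10 or more transcripts (mod(mdg4), lola, br, fru, psq and Trl) only mod(mdg4) was not in the table. The share among all protein-coding genes with that many transcripts was 26.4%, and 30.5% among those in the longest decile.

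The surroundings of these further genes varied as they did among the 10. CG6118 had 5 neighbours in the table, the microRNA genes mir-2c, mir-13a and mir-13b-1, lncRNA:CR45911 and Atx2, in a run of 6 genes. Trl overlapped CG42507 and Tsen34, both in the table. The window of br held inc, Nmdar2 and Mur2B, and that of chinmo held RFeSP and lncRNA:CR44603. For 3 of the genes not in the table, neighbours were in it, namely Act5C near CG3726, Act5C and lncRNA:CR45668 near CG12236, and Gug near CG6765. The pairs BtbVII with pfk and CG12236 with CG3726 lie close together, with 1 and 2 annotated genes between them, and none of these 4 was in the table.

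Genes of other transcription factor families were in the table as well. It held 4 of the 8 Sox genes (50%, exact interval 15.7 to 84.3) and 10 of the 21 nuclear receptor genes (47.6%, 25.7 to 70.2), beside 7.76% of all protein-coding genes. The shares in their own length deciles would give 1.17 of the Sox genes, 3.62 of the nuclear receptor genes and 2.21 of the 10 BTB genes. The nuclear receptors had 11 genes in the longest decile, of which 5 were in the table, beside 6 of 7 for the 10 BTB genes and 26.2% of all genes in that decile. These differences were not tested. The families were picked by name, so the wide intervals of their shares do not compare them.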

How the data were processed

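The data are 1 text table of 3 columns (gene name, FlyBase identifier, symbol) that the authors deposited, headed per the file headers as genes with Prospero binding peaks. It has 1584 entries, 1512 with a gene and 72 with a transcript identifier, and no numeric value. How reads were aligned, how peaks were called and tied to genes, at which threshold and on which build, is stated by none of the sources used here. A rule that takes every gene near a peak would name neighbours together, and a threshold sets how many genes are named. Some of its entries may have been left out of what was analysed.

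The 10 genes were looked up by exact symbol. Gene entries were matched to a RefSeq gene table (Release 6 plus ISO1 MT) by current symbol (1457) or older name (50), with 5 unmatched. Transcript identifiers were not matched. That table gave lengths, transcripts and gene order, and no coordinates are printed. In the list of further BTB genes Tkr proved to be an older name of lov and was dropped, and pfk was read as CG15812. Named genes are the 10 genes, the further BTB genes and those of their 5 neighbours on each side that were in the table. Genes left out of the table that lie beside or inside a BTB gene were named after the table was seen. So were aus, nerfin-1, Glut1, CG11550, Zmynd8 and uzip, which come from the added neighbour settings. Members and lists were chosen with earlier results of these data known, so no test was made. Name matching was run on simulated lists of unique current symbols only, for which full recovery was fixed in advance. Those lists did not test the 50 matches by older name or the reading of pfk. No sequence is shown, since no sequence table was used here. Python 3.11.15, pandas 2.3.3, scipy 1.17.1 and matplotlib 3.10.9 were used.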

Additional observations from a re-analysis of the deposited data

How the results depend on the processing

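The count of 7 of 10 BTB genes was the same with the symbol column only, the gene name column only, the reference match, gene identifiers only, and 1 gene per run within 10 kb. The column and identifier settings could not change it, since each of the 7 had the same name in both columns and a gene identifier. The run setting merged none of the 10 genes. Leaving out each arm that carries one of them gave shares of 66.7 to 75%, and leaving out lola, a setting added after the table was seen, gave 66.7%. The share to set beside it depended on the background. It was 7.76% of protein-coding genes, 8.45% of all annotated genes, 22.1% in the length deciles of the 10 genes and, in a setting added after the table was seen, 23.9% among the 100 genes nearest in length to each. BTB genes with a neighbour in the table numbered 5 with all annotated genes, the main setting. In settings added after the table was seen they numbered 6 with segments left out and 7 with protein-coding neighbours only. Without the 10 genes the share of the wider family was 35.7% in place of 50%. The planned counts of GATC and of Prospero motifs in promoters were not run, since no sequences were used here. No paired analysis was possible because the table has no values per sample. Depth is unknown, so its effect on which genes are named was not tested.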
